A study of Mus musculus with 20 samples.

Results

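The data compared here are 6 of the 20 arrays of a study of mono-2-ethylhexyl phthalate (MEHP), a metabolite of a phthalate plasticiser, in cultured mouse conceptuses. They are 3 arrays of visceral yolk sac whose conceptus had a neural tube defect (NTD) after MEHP and 3 arrays of yolk sac without an NTD after the same exposure. Both MEHP groups were taken from the classes in which the authors' comparison tables average each array. Every gene on the arrays was examined. All conceptuses were CD-1, came from dams that had received no treatment, were explanted on gestational day 8, grew in whole embryo culture for 24 h and were dissected on day 9. The 2 MEHP groups had 100 µg/ml MEHP in the medium, whereas the control yolk sacs, 1 with an NTD and 3 without, had 0.01% dimethyl sulfoxide. Nothing in the labels says how many conceptuses or litters gave RNA to an array, so the p-values below measure only the spread between these arrays, which may be technical.

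The visceral yolk sac is a bilayer. Its outer visceral endoderm takes up maternal proteins by endocytosis, through megalin and cubilin, breaks them down in lysosomes and passes amino acids, vitamins and lipids to the embryo before the placenta does so. It also secretes carrier proteins such as alpha-fetoprotein and transthyretin. Its inner mesoderm forms mesothelium, stroma, the first vessels and the first red cells. An NTD arises when the neural folds of the embryo itself fail to close, so the comparison asks how the supporting tissue differed between conceptuses that had the same exposure and another outcome.

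The columns of the expression table are named by array number, and their groups were read from the authors' deposited comparison tables. The sample headings of a second deposited copy of the values name another group for 13 of the 20 arrays, 3 of the 6 MEHP yolk sac headings among them, and all 3 of these stand over the values of an embryo array. Only the split of the columns used here gave the group differences in the authors' deposited tables. That match is the source of the groups and no separate check of them. The markers of the labelled tissue were present on all 6 arrays. Levels are the deposited log2 intensities, on which a difference of 1 is a doubling, and the median gene stood at 5.65 in yolk sac. Afp, which encodes alpha-fetoprotein, lay between 13.200 and 13.27 with NTD and between 13.26 and 13.31 without, and Amn, the partner of cubilin, lay between 11.48 and 11.64 with NTD and between 11.59 and 11.67 without. The embryo gene Sox2 lay between 2.84 and 3.18 with NTD and between 2.99 and 3.26 without, and the placental gene Tpbpa lay between 3.57 and 3.67 with NTD and between 3.61 and 3.69 without, both near the floor of the scale. Control probe sets for nonspecific binding averaged 3.39 to 3.43 with NTD and 3.35 to 3.44 without (two-sided exact permutation p = 1). The 3′ minus 5′ difference of Gapdh, a sign of RNA quality, was 0.112 to 0.174 with NTD and 0.112 to 0.32 without (exact permutation p = 0.6, where 3 arrays against 3 cannot go below 0.1). Ddx3y, a Y-linked gene, was high on 1 array of each group, at 8.55 with NTD and 8.35 without, and between 3.54 and 4.15 on the other arrays, while Xist was above 10 on all 6. The array numbers of the NTD-positive group all follow those of the group without NTD, so that any effect of array order and NTD status cannot be told apart.

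No gene passed the test between the MEHP yolk sacs with and without NTD. In limma, fitted over the 10 yolk sac arrays with Benjamini-Hochberg adjustment over 20794 genes, 0 genes (0%) had an adjusted p below 0.05, and the smallest adjusted p was 0.0878. At an unadjusted p below 0.05 there were 2002 genes (9.63%), of which 1222 were higher with NTD (5.88%) and 780 lower (3.75%). The 3 NTD-positive arrays all lay above the other 3 for 1848 genes (8.89%) and all below them for 1311 (6.3%). Where a size of at least 0.5 was also asked for, 87 genes were above (0.418%) and 35 below (0.168%). The median difference over all genes was 0.01 and the median standard error 0.08. The authors' deposited table for NTD status in yolk sac, which also counts the control array with NTD as positive, has 0 probe sets with an adjusted p below 0.05, a smallest adjusted p of 0.237 and 3111 probe sets with an unadjusted p below 0.05. Every gene described below is therefore given by its values, and none is called changed between these groups.

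**Figure D1:**
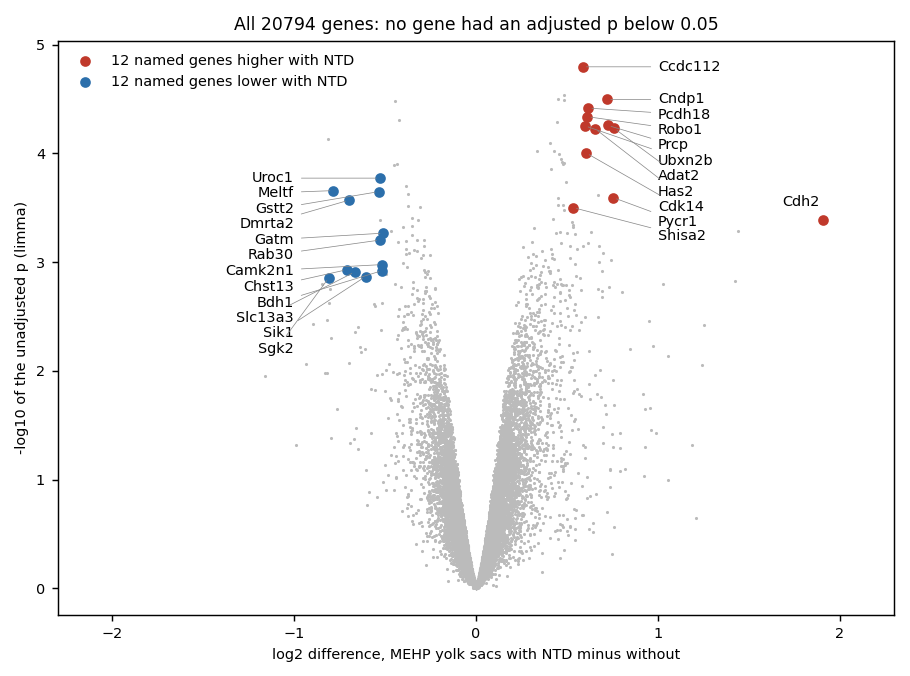
Each point is 1 of 20794 genes, with the log2 difference between MEHP yolk sacs with NTD and without on the x axis and −log10 of the unadjusted limma p on the y axis. The 12 named genes on the right lie between 0.53 and 1.91, and the 12 on the left between −0.51 and −0.81.

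The genes named first are the 12 in each direction with the smallest unadjusted p among those whose groups did not overlap and that differed by at least 0.5. Cdh2, Shisa2, Cndp1 and Ccdc112 among the higher ones, and Gatm among the lower, were dim, that is below the median gene in yolk sac. Of the higher genes, 4 encode proteins at the cell surface or in the matrix. Cdh2, which encodes N-cadherin, a mesenchymal adhesion molecule, had levels of 6.22, 5.05 and 6.41 with NTD, against 4.30, 3.84 and 3.81 without. All NTD-positive arrays were above, but they spread over more than 1 log2 unit, and the difference of 1.91 had a standard error of 0.37 and a limma adjusted p of 0.178. A second Cdh2 probe set also kept the groups apart, with a difference of 0.95. Pcdh18, a protocadherin of mesoderm, had 7.23, 7.18 and 7.41 with NTD and 6.78, 6.60 and 6.59 without, a difference of 0.62 ± 0.09 (SE) with a limma adjusted p of 0.0878. Robo1, a receptor for Slit guidance proteins, had 7.57, 7.60 and 7.60 with NTD and 7.09, 6.93 and 6.91 without, a difference of 0.61 ± 0.09 (SE). The NTD-positive arrays of Robo1 were within 0.03 of each other and above every control, which lay at 7.37, 7.07 and 7.04. A second, dim Robo1 probe set did not follow, with a difference of 0.018 and groups that overlapped. The other Pcdh18 probe sets, also dim, differed by 0.455 and 0.085, and the groups overlapped in the latter. Has2, the enzyme that makes hyaluronan, had 6.51, 6.35 and 6.70 with NTD and 5.87, 5.95 and 5.79 without, and its second probe set differed by 0.38 in the same direction.

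A pair of the higher genes act in growth factor signalling. Shisa2, which holds back Wnt and FGF receptors in the endoplasmic reticulum, had 5.83, 6.06 and 6.21 with NTD, against 5.51, 5.56 and 5.42 without. Cdk14, a kinase that primes the Wnt co-receptor Lrp6, had 6.88, 7.23 and 7.203 with NTD, against 6.39, 6.50 and 6.61 without. For both genes the groups stood apart, by 0.53 ± 0.10 and 0.60 ± 0.10 (SE). The other probe sets of Cdk14 are dim and did not follow the one used, with differences of −0.14 and 0.09.

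The rest of the higher genes are mostly enzymes. Cndp1, a dipeptidase that splits carnosine, had 5.79, 6.11 and 5.96 with NTD, against 5.22, 5.33 and 5.16 without and 4.997, 4.68 and 4.86 in controls. These 3 groups were thus ordered, with NTD-positive MEHP arrays at the top and controls without NTD at the bottom. The control array with an NTD broke this order by exposure, at 5.45, above the MEHP arrays without NTD. Pycr1, the mitochondrial enzyme that makes proline, had 6.87, 6.54 and 7.13 with NTD, against 6.23, 5.97 and 6.07 without. Adat2, a subunit of the deaminase that makes inosine in tRNA anticodons, had 7.29, 7.54 and 7.27 with NTD, against 6.56, 6.87 and 6.40 without. The second Adat2 array without NTD came closest to the NTD-positive arrays, and the control array with an NTD stood at 7.05, above the other controls at 6.64, 6.64 and 6.55. Prcp, a lysosomal carboxypeptidase, had 8.28, 8.43 and 8.12 with NTD, against 7.32, 7.75 and 7.58 without. Prcp probe sets disagreed: another bright one differed by 0.85 in the same direction, and a dimmer one by −0.22. Ubxn2b, an adaptor of the p97 ATPase, had 6.53, 6.53 and 6.54 with NTD, against 6.04, 5.74 and 6.04 without. Its other probe sets, which are dim, differed by 0.304 and −0.053. Ccdc112, a coiled-coil protein, had 5.91, 5.93 and 5.97 with NTD, against 5.36, 5.21 and 5.49 without, and had the smallest p of all genes (limma adjusted p = 0.0878).

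The 12 lower genes include a carrier and several metabolic enzymes. Slc13a3, a sodium-coupled carrier of dicarboxylates, had 8.195, 8.42 and 8.2 with NTD, against 8.91, 9.24 and 8.66 without, a difference of −0.67 ± 0.15 (SE). Gatm, the first enzyme of creatine synthesis, had 5.14, 5.06 and 4.95 with NTD, against 5.55, 5.75 and 5.38 without and 5.88, 5.94 and 5.70 in controls. The NTD-positive arrays of Gatm, a dim gene in yolk sac, were at the bottom, and the arrays without NTD and the controls overlapped. Uroc1, an enzyme of histidine breakdown, had 5.48, 5.33 and 5.24 with NTD, against 6.03, 5.85 and 5.75 without. Bdh1, the mitochondrial enzyme that interconverts ketone bodies, had 6.55, 6.51 and 6.35 with NTD, against 7.05, 6.84 and 7.07 without. Gstt2, a theta-class glutathione transferase, had 7.80, 7.62 and 7.63 with NTD, against 8.16, 8.11 and 8.39 without. In each of these genes the 3 NTD-positive arrays lay below all 3 arrays without NTD, and limma adjusted p-values were between 0.125 and 0.215.

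The other lower genes are of mixed function. Meltf, an iron-binding surface protein, had 6.18, 5.89 and 5.84 with NTD, against 7.04, 6.67 and 6.55 without, and Chst13, a chondroitin sulfotransferase, had 6.52, 6.72 and 6.82 with NTD, against 7.64, 7.36 and 7.19 without. Of 2 kinase genes, Sgk2 had 7.91, 7.41 and 7.32 with NTD and 8.61, 8.09 and 8.38 without, and Sik1, a kinase of the AMPK family, had 7.41, 7.45 and 7.07 with NTD and 8.12, 8.01 and 7.62 without. Both Sgk2 and Sik1 left a narrow gap between the groups. Rab30, a small GTPase of the Golgi, Camk2n1, an inhibitor of the calmodulin-dependent kinase CaMKII, and Dmrta2, a DM-domain transcription factor, differed by −0.53, −0.52 and −0.70. Dim second probe sets of Uroc1, Camk2n1 and Sik1 did not follow, with differences of 0.124, 0.026 and 0.019 and groups that overlapped. The second Bdh1 probe set differed by −0.131, and the other Slc13a3 probe sets by −0.515, 0.006 and 0.123.

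**Figure D2:**
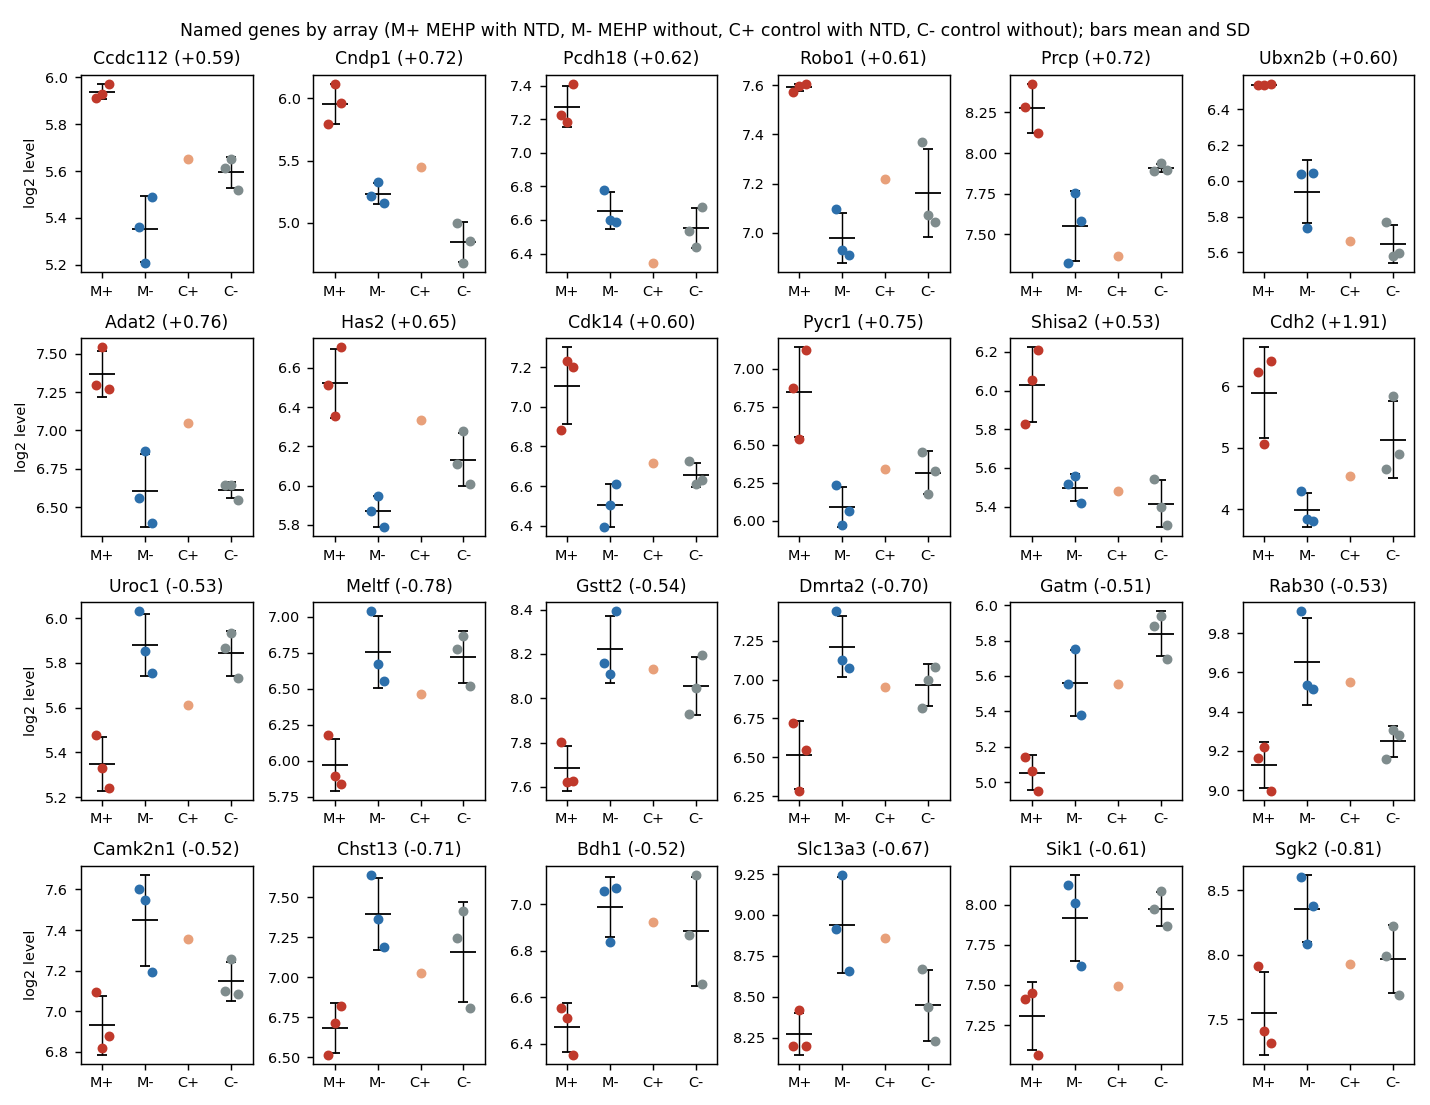
Log2 level of each named gene on every yolk sac array, with MEHP with NTD (M+), MEHP without NTD (M−), the single control with NTD (C+) and controls without NTD (C−) from left to right; bars are the mean and SD of 3 arrays, and the number beside each gene is the difference between the MEHP groups. The M+ and M− points do not overlap in any panel, as the choice of genes required. The place of the C− points varies: they lie between the MEHP groups for Prcp, beyond M− for Cndp1 and in part over M+ for Rab30.

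The same genes were set against the controls without NTD. These comparisons share the MEHP arrays on which the genes were chosen, so their values are given side by side and nothing is read from the counts. MEHP yolk sacs with NTD differed from controls in 494 of all genes (2.38%), and MEHP yolk sacs without NTD in 65 (0.313%). Signs of RNA quality and background moved with these comparisons. The 3′ minus 5′ difference was 0.112 to 0.174 with NTD, against 0.237 to 0.476 in controls, for Gapdh, and 0.478 to 0.579 with NTD, against 0.607 to 0.96 in controls, for Actb. The nonspecific control probe sets averaged 3.39 to 3.43 with NTD and 3.35 to 3.44 in MEHP yolk sacs without NTD, against 3.441 to 3.57 in controls. Their part in the values against controls, those of Cndp1, Ubxn2b, Gatm, Cidec and Ctse included, was not tested. Of the 24 named genes, 12 passed in the first of these comparisons, 8 of them higher (1.4% of all genes), and 0 in the second. The count of 494 came down to between 18 and 192 when any of the 6 arrays was left out, and the count of 65 to 1 or 2. Cndp1 rose by 1.11 in MEHP yolk sacs with NTD over controls (limma adjusted p = 0.00339), and its difference without NTD was 0.39. Ubxn2b rose by 0.89 with NTD, and its difference without NTD was 0.29. Gatm fell by 0.79 with NTD (limma adjusted p = 0.0143), and its difference without NTD was −0.28. In Ccdc112, Has2, Cdk14, Prcp and Cdh2 the arrays without NTD lay below all controls, and those with NTD, except in Cdh2, lay above them. Prcp differed from controls by 0.37 with NTD and by −0.36 without, and Cdh2 by 0.76 with NTD and by −1.14 without. The single control array with an NTD was above all 3 other controls in 4 of the 12 higher genes and below them in 3, and was below them in 4 of the 12 lower genes and above them in 3.

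Several genes of the integrated stress response stood higher in the yolk sacs with NTD. In this response, kinases that sense amino acid shortage, misfolded protein or mitochondrial stress slow translation, while the transcription factor ATF4 and its partners switch on amino acid synthesis and feedback genes. Of 49 measured genes of the unfolded protein and integrated stress responses, 0 passed. The NTD-positive arrays were all above in 11 (22.4%, against 8.89% of all genes) and all below in 6 (against 6.3%). The list's share was thus over that of all genes in both directions, below as well as above. Its median difference was 0.07, against 0.01 over all genes. The median was 0.03 without the third array without NTD or without the second NTD-positive array, and 0.04 without the third NTD-positive array. Among those above, Trib3, a pseudokinase that feeds back on ATF4, had 7.77, 7.35 and 7.69 with NTD, against 6.82, 6.99 and 6.81 without, a difference of 0.73 ± 0.17 (SE). Pck2, the mitochondrial carboxykinase, had 6.61, 6.96 and 7.12 with NTD, against 6.32, 6.35 and 6.37 without. The spread of Pck2 lay in the NTD-positive group, and the other group held within 0.06. Ddit3, which encodes the transcription factor CHOP, had 7.48, 7.08 and 7.36 with NTD, against 6.81, 6.80 and 6.78 without. Asns, the enzyme that makes asparagine, had 9.93, 9.70 and 9.99 with NTD, against 9.34, 9.69 and 9.32 without, so that its groups almost met. The others above were Cth, Atf5, Stc2, Ppp1r15a, Chac1, Slc7a3 and Atf4 itself, with differences between 0.11 and 0.67.

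The 6 members below came from several branches. Xbp1, a transcription factor of the unfolded protein response, had 11.87, 11.85 and 11.87 with NTD, against 12.01, 11.94 and 11.99 without. Eif2ak3, the kinase PERK, and Dnajc3, its inhibitor, differed by −0.20 and −0.16. Cebpb, which encodes a partner of ATF4, had 9.31, 9.31 and 9.38 with NTD, against 9.67, 9.73 and 9.51 without, and Sesn2 and Phgdh differed by −0.28 and −0.09. Trib3 lay at 6.77, 7.51 and 6.98 in controls and Pck2 at 6.70, 6.74 and 6.42, so that 2 of the 3 NTD-positive arrays of each were above all controls. The mean level of the whole list was 8.43, 8.42 and 8.52 with NTD, against 8.37, 8.32 and 8.32 without and 8.41, 8.503 and 8.38 in controls. By this mean the NTD-positive arrays overlapped the controls, and the arrays without NTD lay just below them. Against controls, no stress gene passed in either MEHP group. The 19 aminoacyl-tRNA synthetases, which often move with ATF4, had 1 member above and 1 below (5.26% each), with a median difference of 0.02 that was −0.02 without the second NTD-positive array.

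The promoters of the stress genes are shown because ATF4 and its partners bind a composite element, and the window of Pycr1, a named gene outside the list, can be set beside those of list members. The windows run from 250 bases before to 50 bases after the start of the gene in RefSeq (GRCm38.p6), and capitals mark TGATGNAA, the core of that element, or its reverse complement. Matched by symbol, 42 of the 49 list genes have a window in the table.
Pycr1, chr11:120643699-120643998, minus strand: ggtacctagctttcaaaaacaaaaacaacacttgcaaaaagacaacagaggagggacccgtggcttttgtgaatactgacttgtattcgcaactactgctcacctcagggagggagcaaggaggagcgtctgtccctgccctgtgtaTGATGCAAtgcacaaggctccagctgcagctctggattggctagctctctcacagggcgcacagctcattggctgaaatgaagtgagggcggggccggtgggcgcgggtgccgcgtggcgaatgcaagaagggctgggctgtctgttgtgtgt
Asns, chr6:7693160-7693459, minus strand: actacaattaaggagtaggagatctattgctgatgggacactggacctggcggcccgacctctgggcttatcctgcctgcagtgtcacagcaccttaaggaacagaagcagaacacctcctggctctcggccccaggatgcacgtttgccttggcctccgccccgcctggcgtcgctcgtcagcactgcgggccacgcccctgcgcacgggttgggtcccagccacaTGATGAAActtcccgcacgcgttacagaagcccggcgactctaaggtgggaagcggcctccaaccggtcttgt
Pck2, chr14:55540016-55540315, plus strand: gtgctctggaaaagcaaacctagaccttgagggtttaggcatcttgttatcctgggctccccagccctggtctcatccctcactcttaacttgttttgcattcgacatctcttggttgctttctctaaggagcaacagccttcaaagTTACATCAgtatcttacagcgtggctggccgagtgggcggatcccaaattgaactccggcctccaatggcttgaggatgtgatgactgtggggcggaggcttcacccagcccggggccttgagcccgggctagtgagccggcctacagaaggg
Trib3, chr2:152344011-152344310, minus strand: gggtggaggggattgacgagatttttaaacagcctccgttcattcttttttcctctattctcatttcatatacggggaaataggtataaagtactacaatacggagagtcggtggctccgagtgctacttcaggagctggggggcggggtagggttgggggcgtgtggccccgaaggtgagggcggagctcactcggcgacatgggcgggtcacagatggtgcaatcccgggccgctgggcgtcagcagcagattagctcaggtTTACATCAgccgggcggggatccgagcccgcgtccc
The letters start 103 bases before the start in Pycr1, 23 before it in Asns and 103 before it, on the reverse strand, in Pck2, whereas in Trib3 they lie after the start. Searched on both strands, TGATGNAA occurs in the windows of 1219 of 27025 genes (4.51%), of 10 of the 42 list genes (23.8%) and of 4 of the 9 list genes with a window whose NTD-positive arrays were all above, namely Asns, Chac1, Pck2 and Trib3. A match of letters is a description of the window and not evidence of binding, and windows without the letters, as for Ddit3, say nothing of the factor.

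The same genes were measured in the embryos of the study. The stress list was chosen with earlier results of these data known, so its embryo counts are a description and not independent evidence. In embryos exposed to MEHP, 3 with NTD and 3 without, 5 of all genes passed (0.024%), of which 2 rose with NTD (0.00962%), and these were Atf5 and Ddit3. Atf5 had 7.90, 8.17 and 8.16 in embryos with NTD, against 7.35, 7.2 and 7.001 without, a rise of 0.89 ± 0.11 (SE; limma adjusted p = 0.0443). Ddit3 had 6.99, 6.91 and 6.97 in embryos with NTD, against 6.52, 6.41 and 6.48 without, a rise of 0.49 ± 0.06 (SE; limma adjusted p = 0.0443). Of the 11 stress genes above in yolk sac, 10 also had all NTD-positive embryo arrays above. Of the 6 stress genes below in yolk sac, 4 had all NTD-positive embryo arrays above, on the opposite side. Over the whole list 22 of 49 were above in embryo, against 6.43% of all genes there. The labels leave unsaid whether yolk sac and embryo RNA came from shared conceptuses. Pycr1 had 7.95, 7.83 and 8.55 in embryos with NTD, against 7.16, 6.73 and 6.95 without. The embryo difference of Pycr1, 1.16, had a limma adjusted p of 0.156.

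**Figure D3:**
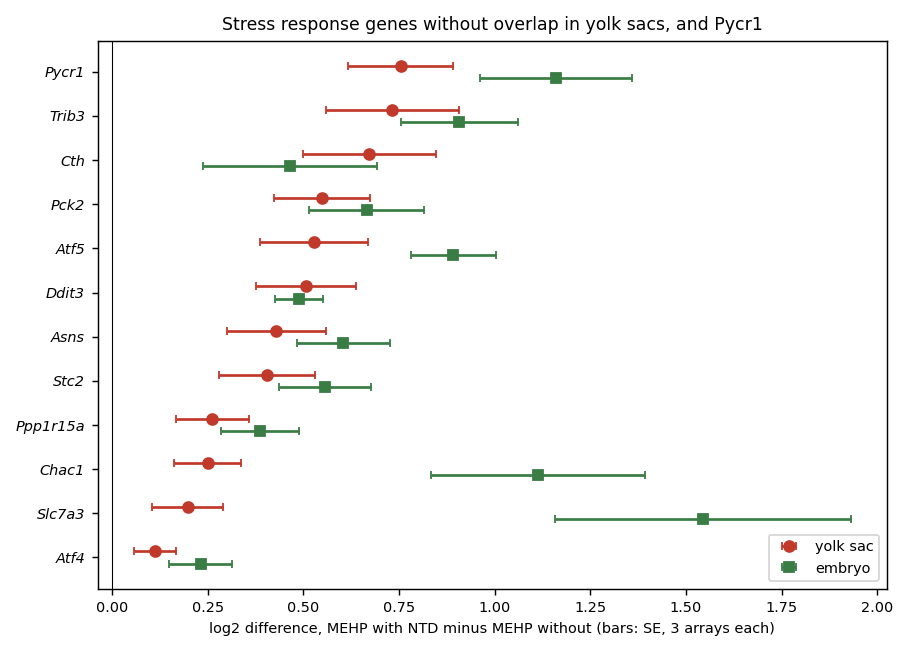
Log2 difference between MEHP conceptuses with and without NTD for Pycr1 and the 11 stress genes whose NTD-positive yolk sac arrays all lay above. The 6 stress genes whose NTD-positive yolk sac arrays all lay below are not shown. Circles are yolk sac, squares embryo, and bars the SE of a comparison of 3 arrays with 3. All 12 genes lie above 0 in yolk sac, as their choice required, and also in embryo. Chac1 and Slc7a3 lie at 0.25 and 0.20 in yolk sac and 1.11 and 1.54 in embryo.

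Targets of the peroxisome proliferator-activated receptors (PPARs) were chosen because MEHP is a known PPAR agonist. These nuclear receptors switch on fatty acid uptake, lipid storage and oxidation in mitochondria and peroxisomes. Of 54 measured targets and fatty acid oxidation genes, 0 passed, the NTD-positive arrays were all below in 13 (24.1%) and all above in 2 (3.7%), against 6.3% and 8.89% of all genes, and the median difference was −0.06, or −0.08 without the first NTD-positive array. Ehhadh, a bifunctional enzyme of peroxisomal oxidation, had 8.84, 8.65 and 8.78 with NTD, against 9.24, 9.19 and 9.13 without and 8.91, 8.60 and 8.67 in controls. Acaa1a, the peroxisomal thiolase, had 7.61, 7.47 and 7.56 with NTD, against 7.91, 7.97 and 7.87 without and 7.43, 7.64 and 7.37 in controls. For both enzymes the arrays without NTD stood above the controls, while those with NTD lay among them. Cidec, a lipid droplet protein, had 5.39, 5.04 and 4.66 with NTD, against 5.39, 5.86 and 5.82 without, where the rise of 1.22 over controls passed (limma adjusted p = 0.0333). Fabp4, a fatty acid carrier, had 4.92, 4.41 and 4.45 with NTD, against 5.90, 4.95 and 5.39 without. In neither gene was there a clear gap: the nearest arrays stood at 5.39 in each group for Cidec, and at 4.92 and 4.95 for Fabp4. Of the 13 genes, 6 had all arrays without NTD above all controls, and 10 had NTD-positive arrays that overlapped the controls. Me1, the cytosolic malic enzyme, ran the other way, with 8.61, 8.77 and 8.63 with NTD, against 8.28, 8.13 and 8.40 without, and Ucp3 differed by 0.13.

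The list of mesoderm and matrix genes had the largest share of genes above among the lists examined. Of 38 genes of extraembryonic mesoderm, mesothelium and matrix, 0 passed, the NTD-positive arrays were all above in 15 (39.5%, against 8.89% of all genes) and all below in 0 (against 6.3%), and the median difference was 0.19. Hand2, a transcription factor of lateral mesoderm, had 8.37, 8.21 and 8.52 with NTD, against 8.05, 8.08 and 7.96 without. Postn, a matricellular protein, had 11.86, 11.84 and 11.75 with NTD, against 11.42, 11.28 and 11.63 without. Ccn2, a matrix protein known as connective tissue growth factor, had 7.93, 8.19 and 8.01 with NTD, against 7.85, 7.12 and 7.50 without. The groups of Ccn2 nearly touched, since the lowest NTD-positive array and the highest array without NTD were 0.08 apart. The rest were Pdgfrb, Dcn, Lum, Vim, Cdh11, Col6a1, Col6a2, Col5a2, Fbn2, Ccn1, Ppic and Bmp4, with differences between 0.17 and 0.42. The main fibrillar collagens overlapped between the groups. Col1a1 had 11.13, 11.27 and 11.23 with NTD, against 11.14, 11.203 and 11.17 without, and Col3a1 differed by 0.09. Hand1, with Col1a1 and Col3a1 a defining mesoderm marker here, lay at 6.52 to 6.76 with NTD and 6.47 to 6.61 without. The groups thus overlapped in every defining marker of mesoderm. In 5 of the 15 genes the NTD-positive arrays also lay above all 3 controls. The median of the list stayed between 0.16 and 0.22 when any MEHP yolk sac array was left out. In embryos, 10 of the 15 genes had a difference below 0.

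Genes of uptake and breakdown in the endoderm ran the other way. Of 43 endocytic receptor and lysosome genes, 0 passed, the NTD-positive arrays were all below in 17 (39.5%, against 6.3% of all genes) and all above in 1 (2.33%, against 8.89%), and the median difference was −0.09. Lrp2, which encodes megalin, had 9.90, 9.79 and 9.64 with NTD, against 10.24, 10.18 and 10.08 without and 9.79, 9.45 and 9.57 in controls. Cubn, which encodes cubilin, had 12.51, 12.68 and 12.50 with NTD, against 12.81, 12.81 and 12.76 without. Folr1, the folate receptor, had 11.08, 11.13 and 10.86 with NTD, against 11.32, 11.18 and 11.30 without. For these 3 receptors the array values were clear of each other, but the gaps were small, 0.05 for Folr1. Of the lysosomal genes, Glb1, the beta-galactosidase, had 8.38, 8.45 and 8.42 with NTD, against 8.67, 8.88 and 8.75 without, and Mcoln1, a lysosomal cation channel, had 9.31, 9.28 and 9.12 with NTD, against 9.63, 9.53 and 9.53 without. Ctsa, Hexa, Ctsb, Ctsc, Man2b1, Npc2, Lamp1, Lamp2, Ctsz, Atp6v0d1, Rab7 and Rab5a were also below, with differences between −0.06 and −0.27. In 9 of the 17 genes the NTD-positive arrays also lay below all 3 controls, and in 7 the arrays without NTD lay above them. The single member above was Ctse, which encodes the aspartic protease cathepsin E, with 8.19, 6.90 and 6.89 with NTD, against 5.80, 6.41 and 5.49 without. Ctse rose by 1.55 in NTD-positive MEHP yolk sacs over controls (limma adjusted p = 0.0437).

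Other endoderm genes were mixed. Of 50 genes of visceral endoderm and its secreted plasma proteins, 11 were below (22.0%, against 6.3% of all genes) and 2 above (4.0%, against 8.89%), with a median difference of −0.07, which was −0.05 without the third NTD-positive array. Both Lrp2 and Cubn are on this list too. Fgb, a fibrinogen chain, had 10.82, 10.74 and 10.61 with NTD, against 11.15, 11.14 and 10.93 without. Among the forkhead and GATA factors that govern endoderm, Foxa2 had 8.63, 8.64 and 8.52 with NTD, against 8.95, 8.96 and 8.85 without, while Foxa1 had 7.82, 7.82 and 7.90 with NTD, against 7.59, 7.24 and 7.28 without, and Gata6 had 8.47, 8.23 and 8.37 with NTD, against 8.09, 7.96 and 8.03 without. The 2 forkhead factors thus stood on opposite sides. Hnf4a overlapped, at 10.04 to 10.34 with NTD and 10.16 to 10.35 without, and Ttr differed by only −0.06. In bulk tissue, a smaller share of endoderm cells and less RNA of these genes per cell cannot be told apart, and the same holds for the mesodermal genes.

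**Figure D4:**
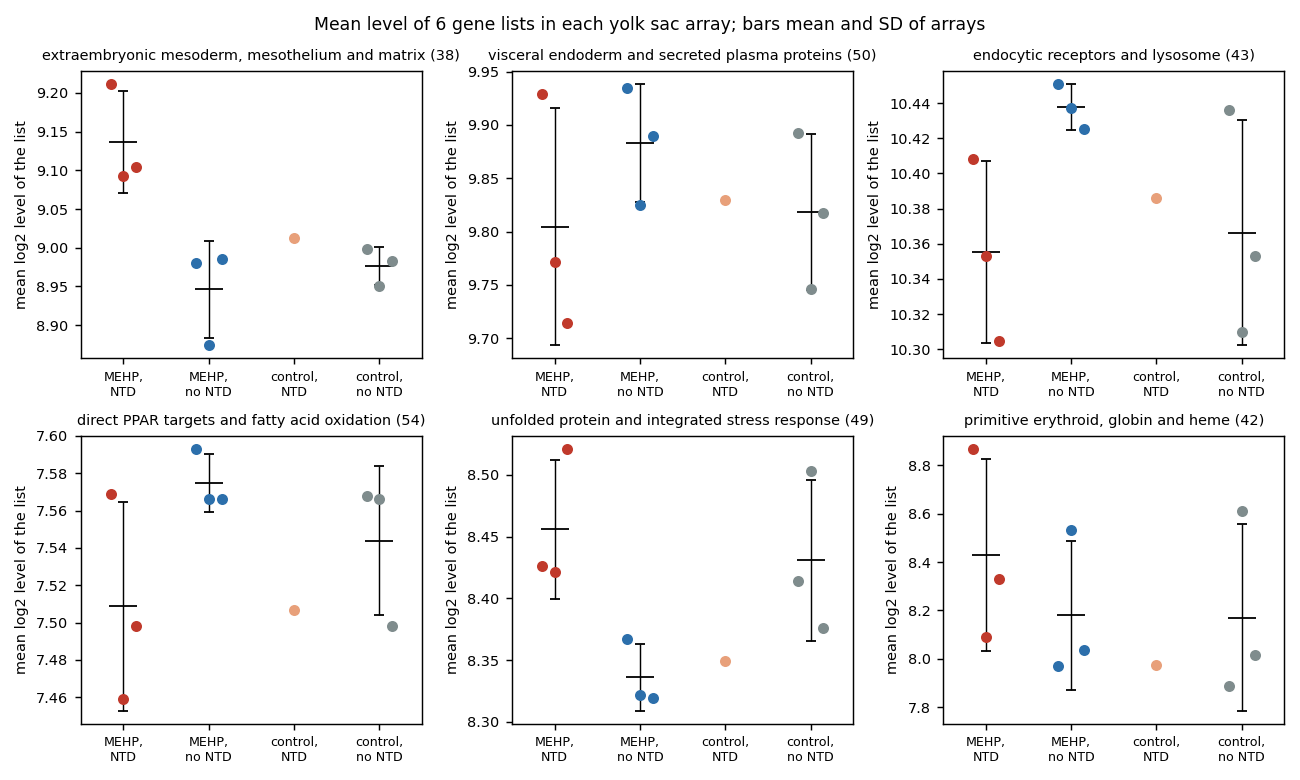
Mean log2 level of 6 gene lists on each yolk sac array, with MEHP with NTD, MEHP without NTD, the single control with NTD and controls without NTD from left to right; bars are the mean and SD of 3 arrays, and the list size stands in brackets. The mesoderm list has NTD-positive arrays at 9.21, 9.09 and 9.10, all above the 8.98, 8.87 and 8.98 of arrays without NTD, and the erythroid list varies most within each group.

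Levels of blood genes varied between arrays of each group. Of 42 primitive erythroid, globin and heme genes, 0 were clear of overlap in either direction, although the median difference was 0.24 and 38 differences were above 0. Their mean level was 8.87, 8.09 and 8.33 with NTD, against 7.97, 8.53 and 8.04 without, so that the median depended on single arrays. It was 0.03 without the first NTD-positive array and 0.43 without the second. It was 0.45 without the second array of the group without NTD and 0.15 without the third. Gata1, an erythroid factor, had 7.57, 6.69 and 7.07 with NTD, against 6.36, 7.26 and 6.49 without. The same arrays were highest for Hbb-bh1, an embryonic globin, at 13.36, 13.12 and 13.17 with NTD and 13.10, 13.28 and 13.10 without. Of 28 macrophage and myeloid genes, 2 were above (7.14%, against 8.89% of all genes) and 0 below (against 6.3%), and the sum of their linear levels was 3354 to 3972 with NTD and 3700 to 3890 without. Of 32 endothelial genes, 6 were above (18.8%) and 0 below, with Tek differing by 0.25 and Pecam1 by −0.08, and the sum of their linear levels was 7742 to 8969 with NTD and 7429 to 8241 without. The parts of blood, macrophage and vessel content in the values above were not tested.

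Signs of embryo tissue were sought as well. Of 26 heart muscle genes, 18 of them dimmer than the median gene, 6 were above (23.1%, against 8.89% of all genes) and 0 below (against 6.3%), with Tnnt2 at 4.47, 4.65 and 4.41 with NTD, against 4.12, 3.94 and 4.23 without. The defining heart gene Myl7 lay at 4.44 to 4.76 with NTD and 4.28 to 4.56 without, against 11.7 ± 0.15 in embryos with NTD (SD, n = 3). Of 32 neural and somite genes, 28 of them dim, 0 were above and 4 below (12.5%), with Sox1 at 3.34, 3.45 and 3.53 with NTD, against 3.79, 3.81 and 3.88 without. Of 26 trophoblast and decidua genes, 22 of them dim, 1 was above (3.85%) and 0 below. Of 22 parietal endoderm and basement membrane genes, 5 were above (22.7%) and 0 below, led by Plat, a plasminogen activator, at 7.70, 7.83 and 8.06 with NTD and 7.26, 7.41 and 7.53 without.

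Signalling genes were examined by pathway, against 8.89% above and 6.3% below over all genes. Of 40 BMP and TGF-beta genes, 8 were above (20.0%) and 0 below, with 28 differences above 0 and a median of 0.07. Bmp2, a ligand, had 7.50, 7.28 and 7.48 with NTD, against 6.86, 6.66 and 7.15 without, and Bambi, a decoy receptor, had 8.58, 8.27 and 8.59 with NTD, against 8.08, 7.99 and 8.17 without. Ligand and decoy thus both stood higher in the NTD-positive arrays. Of 47 Wnt genes, 6 were above (12.8%) and 3 below (6.38%), with 35 differences above 0. Sfrp1, a secreted Wnt inhibitor, had 7.14, 6.04 and 6.98 with NTD, against 5.85, 5.21 and 5.33 without, and Dkk1, another, had 5.62, 5.39 and 5.42 with NTD, against 4.64, 4.89 and 5.17 without. Sfrp1 differed by 1.25 with a standard error of 0.34 and varied widely among controls, at 5.80, 6.87 and 5.85. Of 42 FGF, VEGF and growth factor genes, 7 were above (16.7%) and 1 below (2.38%), led by Igfbp3, a carrier of insulin-like growth factors, with a difference of 0.46. Of 23 retinoic acid genes, 5 were above (21.7%) and 3 below (13.04%), and Cyp26b1, a retinoic acid hydroxylase, had 5.66, 5.58 and 5.89 with NTD, against 6.80, 6.84 and 5.51 without. The third array of Cyp26b1 without NTD lay with the NTD-positive arrays, so that the groups overlapped and the difference was −0.67 (limma adjusted p = 0.499). Without that array it was −1.11 (limma adjusted p = 0.0401).

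The shares above were also over the 8.89% of all genes in the ribosomal, cell cycle and imprinted lists. Of 71 cytosolic ribosomal protein genes, 22 were above (31.0%) and 3 below (4.23%), yet the median difference was only 0.03, on levels that averaged 12.26, 12.27 and 12.29 with NTD and 12.24 on each array without. Of 49 cell cycle and DNA replication genes, 11 were above (22.4%) and 3 below (6.12%), led by Ccnd2, a G1 cyclin, with 9.05, 8.60 and 8.98 with NTD and 8.55, 8.38 and 8.43 without. Of 48 imprinted genes, 13 were above (27.1%) and 3 below (6.25%), which were Gatm, Igf2r and Slc22a3. Igf2r, the receptor that clears Igf2, had 10.71, 10.60 and 10.54 with NTD, against 10.91, 10.96 and 11.01 without, and Ndn, a growth suppressor, had 10.45, 10.26 and 10.57 with NTD, against 10.15, 9.99 and 10.10 without. Of 33 genes of zinc, iron and copper handling, 3 were above (9.09%) and 7 below (21.2%), among them Slc39a4, a zinc importer, with a difference of −0.37. Of 40 hypoxia and glycolysis genes, 5 were above (12.5%) and 2 below (5.0%), with Hk2, a hexokinase, at 8.13, 8.05 and 8.26 with NTD and 7.73, 7.45 and 7.71 without. Of 41 p53 targets and apoptosis genes, 0 were above and 4 below (9.76%), led in size by Btg2, an antiproliferative gene, at 6.88, 6.54 and 7.32 with NTD and 7.91, 8.58 and 7.73 without. The Btg2 difference of −1.16 had a standard error of 0.37 and a limma adjusted p of 0.357. Controls without NTD varied widely in Btg2, at 7.56, 6.53 and 8.16, and overlapped both MEHP groups. In embryos Btg2 differed by −1.05.

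**Figure D5:**
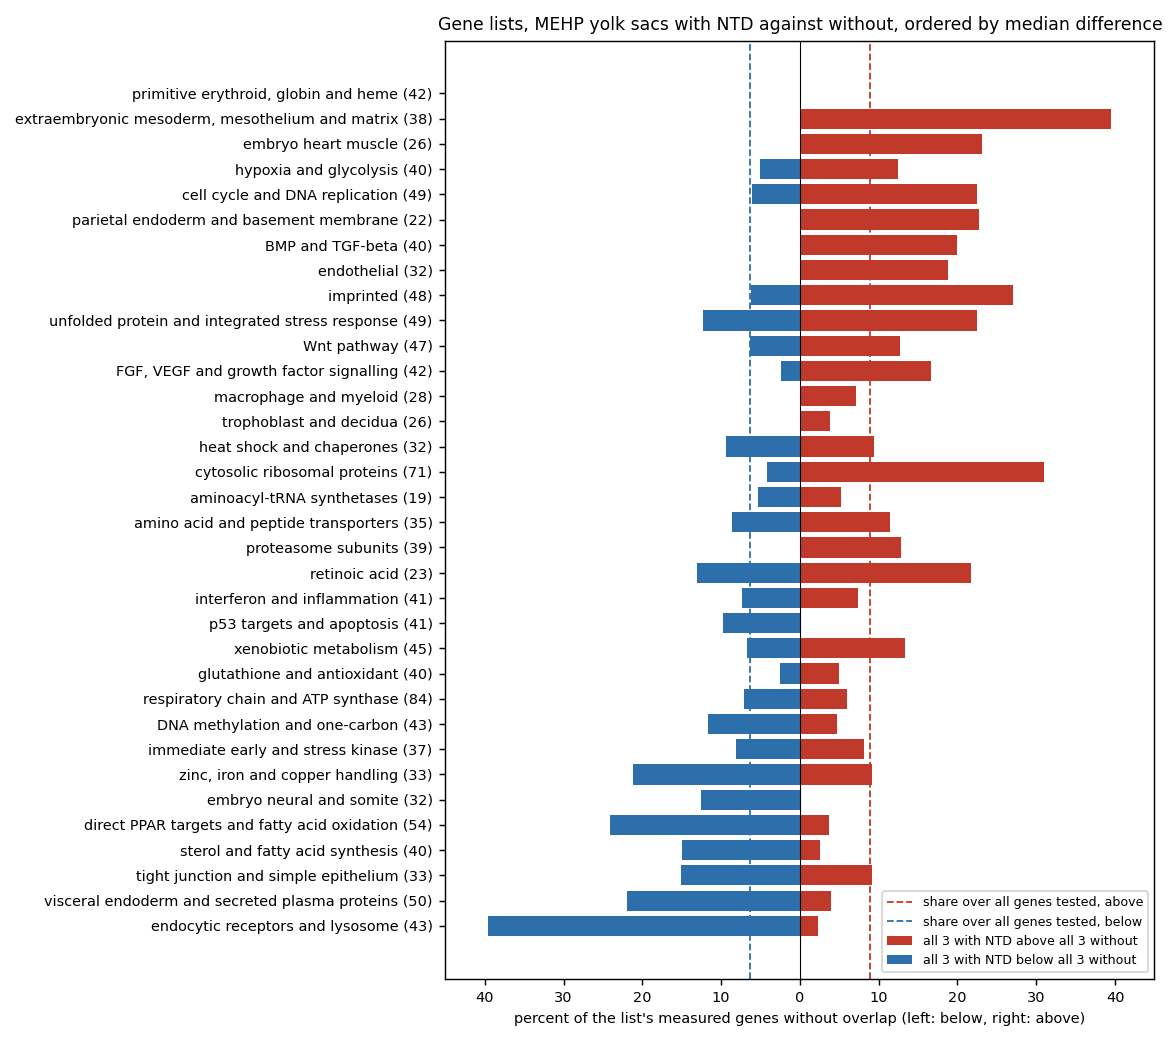
Share of each list's measured genes whose 3 NTD-positive MEHP arrays all lay above (right) or below (left) the 3 MEHP arrays without NTD, with the list size in brackets and the lists ordered by median difference; dashed lines mark the shares over all 20794 genes, 8.89% above and 6.3% below. The mesoderm list has 39.5% above, the endocytic and lysosome list 39.5% below, and the erythroid list none on either side.

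The difference between tissues was tested directly, as the NTD difference in MEHP yolk sacs minus that in MEHP embryos. Of the 24 named genes 0 passed this test, in which 3 of all genes passed (0.0144%), and the smallest limma adjusted p among them was 0.0621, for Cndp1, which differed by 0.72 in yolk sac and by −0.04 in embryo. Among the 12 higher genes, 5 had embryo arrays with NTD all above those without and 0 all below, and among the 12 lower genes, 2 had them all below and 0 all above, against 6.43% and 6.78% of all genes. Prcp had 7.40, 7.11 and 7.12 in embryos with NTD, against 6.31, 6.53 and 6.58 without, with a limma adjusted p of 0.0509. Adat2 had 7.94, 8.23 and 7.74 in embryos with NTD, against 7.27, 7.62 and 7.13 without. Gatm had 5.68, 6.09 and 5.95 in embryos with NTD, against 6.42, 6.59 and 6.70 without. These 3 genes thus stood apart in both tissues in the same direction, whereas Pcdh18, Robo1 and Ubxn2b differed by −0.10, −0.13 and −0.22 in embryo, with limma adjusted p-values of 0.966, 0.957 and 0.953 there.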

How the data were processed

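RNA of each tissue was hybridised to Affymetrix mouse arrays by the authors, and the submitters' processing notes name RMA, limma and R 2.15.1 without giving their roles. The values used are the log2 intensities of 45141 probe sets in the authors' deposited expression table, and the raw scans were lost, per the labels. The authors' deposited tables of group comparisons also hold p-values and ratios as log2 values. These tables were used only to assign the groups and where named. Groups were given to the expression table's columns from those comparisons. Of 1022 ways to split the arrays of a tissue, the one used alone gave the authors' differences in all 4 tables. The sample headings of a second copy of the values name another group for 13 of the 20 arrays, among them 3 of the 6 MEHP yolk sac headings, and were not followed.

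Control probe sets (104) and those without a gene symbol (6670) were left out, and symbols were brought up to date through Entrez IDs in RefSeq's table for GRCm38.p6, where 35403 of 38367 probe sets matched. Each of 20794 genes is represented by its brightest probe set, by the mean of the 20 arrays. No build is named for the probe sets, so none of them is placed on the genome, and the promoter windows carry the coordinates of RefSeq's table for GRCm38.p6. limma 3.58.1 (lmFit and eBayes, in R 4.3.3) was fitted to the 10 yolk sac arrays with a mean per group, and the tissue difference to all 20 arrays with 8 group means, at an adjusted p of 0.05; the procedure was tested on simulated data. A gene is called dim below the median of all genes in yolk sac. Alternatives were quantile and loess normalization, other arrays in the fit, trend and robust variances, no dim genes, all probe sets, 3 covariates and leaving out each array.

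Named genes were all genes past the threshold (0 here) and then, up to 12 in each direction, genes without overlap and with a difference of at least 0.5, by unadjusted p and without clone names, plus up to 2 members of each list in each direction by unadjusted p. Further list members were chosen after their values were seen. The comparison, the members and the lists were chosen with earlier results of these data known. The number of arrays limits the precision.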

Additional observations from a re-analysis of the deposited data

Results flagged for a closer look

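The NTD difference itself differed between tissues for 3 genes, which were named after their values were seen, by limma's test of yolk sac minus embryo over all 20 arrays. For Epha3, an ephrin receptor, the yolk sac difference exceeded that in embryo by 1.15 (SE 0.156, adjusted p = 0.0137). Epha3 lay at 3.56, 3.29 and 3.45 in yolk sacs with NTD and 3.28, 3.15 and 3.39 without, near the floor of the scale, and at 5.46, 5.68 and 5.28 in embryos with NTD and 6.58, 6.50 and 6.30 without. For Lhx9, a LIM homeobox factor, the excess was 1.65 (SE 0.223, adjusted p = 0.0137). Yolk sac levels of Lhx9 were again near the floor, between 3.34 and 3.46 on the 6 MEHP arrays. They hardly differed between the groups, so the excess lay in lower Lhx9 values of embryos with NTD. For Zfp462, a zinc finger gene, the excess was 0.65 (SE 0.0979, adjusted p = 0.0368). Zfp462 alone of the 3 was well above the floor in yolk sac, at 7.90, 7.85 and 7.96 with NTD, against 7.58, 7.41 and 7.36 without. In embryos Zfp462 lay at 10.21, 10.42 and 10.36 with NTD, against 10.50, 10.54 and 10.52 without. The count of 3 was 0 to 9 when 1 MEHP array of either tissue was left out, and 0 without the second yolk sac array without NTD, the third yolk sac array with NTD, or the first or the second embryo array without NTD.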

How the results depend on the processing

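No paired analysis was possible because the columns carry no replicate numbers that could match arrays across groups. The count of 0 genes between MEHP yolk sacs with and without NTD was also 0 after quantile or loess normalization, in the 6 arrays alone, without dim genes, over all named probe sets and with each of 3 covariates. It was 30 (24 higher, 6 lower) with the spread estimated from all 20 arrays and 13 (9 higher, 4 lower) with trend and robust variances, and 9 genes were in both. Of the 24 named genes, 11 passed in the first of these fits and 5 in the second, and none turned its sign under any alternative. Leaving out each array in turn gave 0 to 1 for this count, the 1 being Cyp26b1. It gave 1 to 2 in place of 65 for MEHP without NTD over controls, 18 to 192 in place of 494 for MEHP with NTD over controls, and 0 to 9 in place of 3 for the tissue difference. The medians of the mesoderm, lysosome, PPAR, visceral endoderm and stress lists kept their sign under every normalization and left-out array, as chosen after seeing the data, although the stress median was 0.03 to 0.06 with 1 array left out in place of 0.07, while the endothelial median was −0.005 without the third array without NTD. Groups of 3 arrays and a floor near 3 on the log2 scale limit what could be told apart.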
